A study of Rattus norvegicus with 6 samples.

Results

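Focal adhesion plaque genes encode the cytoplasmic proteins that couple clustered integrins, the matrix receptors of the cell, to actin filaments. The set described here holds the 10 genes Tln1, Vcl, Flna, Actn1, Actn4, Zyx, Ilk, Ptk2, Pxn and Bcar1, which were taken by symbol from a table of 17143 genes, and each symbol matched 1 row. The cells were Rat-1, a long-established fibroblast line from rat, and their transcripts were read out 4 h after plating (25000 cells per well) on extracellular matrix. The matrix had been treated with matrix metalloproteinase 13 (MMP13, 2 libraries), with matrix metalloproteinase 1 (MMP1, 2 libraries), or left native (2 libraries). All libraries come from 1 cell line, and the sources used here give neither the dose nor the duration of the protease treatment. The labels call the samples duplicates without saying whether they were separate cultures, so the p-values reflect spread among these libraries alone, and that spread could be technical.

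In a fibroblast attached to collagen or fibronectin, talin binds the integrin tail and opens the receptor, and vinculin then joins talin to actin. Filamin and the alpha-actinins crosslink the filaments that end in the plaque, and zyxin is recruited there under tension. Integrin-linked kinase forms the core of a complex with PINCH and parvin proteins, while focal adhesion kinase, paxillin and p130Cas carry adhesion signals into the cell. MMP1 and MMP13 are secreted collagenases that cleave fibrillar collagen, and the study asked how cells respond to a matrix so changed.

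Levels are given in units, that is in reads divided by a size factor for each library, as deposited. Totals of whole reads, recovered from these values, ran from 161817 to 362122 per library, so that a single read equals 0.735 to 1.68 units. Fibroblast genes (Col1a1, Vim, Fn1 and 8 others) took between 2.94% and 3.29% of reads in a library. Not all of them were abundant, since Pdgfra had only 2 to 10 reads per library and Col3a1 only 4 to 28. The leukocyte, epithelial, endothelial, muscle and tenocyte marker lists each took at most 0.0181%. Single markers on these lists were still read in every library. The tenocyte gene Scx had 21.8 to 47.5 units, and the leukocyte gene Csf1r had 8 to 25 reads. Epcam, which marks epithelial cells, had 0 reads in every library. At a floor of 3 reads, for counting error only, this allows up to 5.04 units in the shallowest one. The other epithelial markers each had reads in some library, and Cldn4 had 1 to 6 reads in every one. Reads under Rn45s, the ribosomal RNA precursor entry, made up 0.692% and 0.968% of all reads in MMP13 libraries, 0.661% and 0.936% in MMP1 libraries and 0.347% and 0.293% in native libraries, and its part in the results below was not tested.

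All 10 plaque genes were expressed in every library and passed the filter on low values (at least 5 units in at least 2 libraries), as did 7284 genes in all. As 3' end tags, with no correction for length, they ran from a mean of 21.2 units for Ptk2, at the 65.5th percentile of tested genes, to 208 units for Flna, at the 97.6th. Reads per library lay between 6 and 31 for Ptk2 and between 117 and 282 for Flna. None of the 10 had the same read count in all 6 libraries as another entry of the table.

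None of the 10 genes differed between any pair of matrices by limma at an adjusted p under 0.05. On MMP13-treated matrix against native, 7 of 10 log2 folds were above 0, where 50.5% of all tested genes were, and the median was 0.26 against 0.01 for all tested genes. On MMP1-treated matrix against native, 9 of 10 were above 0 (51.1% of all tested genes), with a median of 0.21 against 0.02. These 2 comparisons share the native libraries and are not independent of each other. The largest log2 folds in size were of Ptk2 on MMP13-treated matrix (0.66) and of Pxn on MMP1-treated matrix (0.52).

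**Figure D1:**
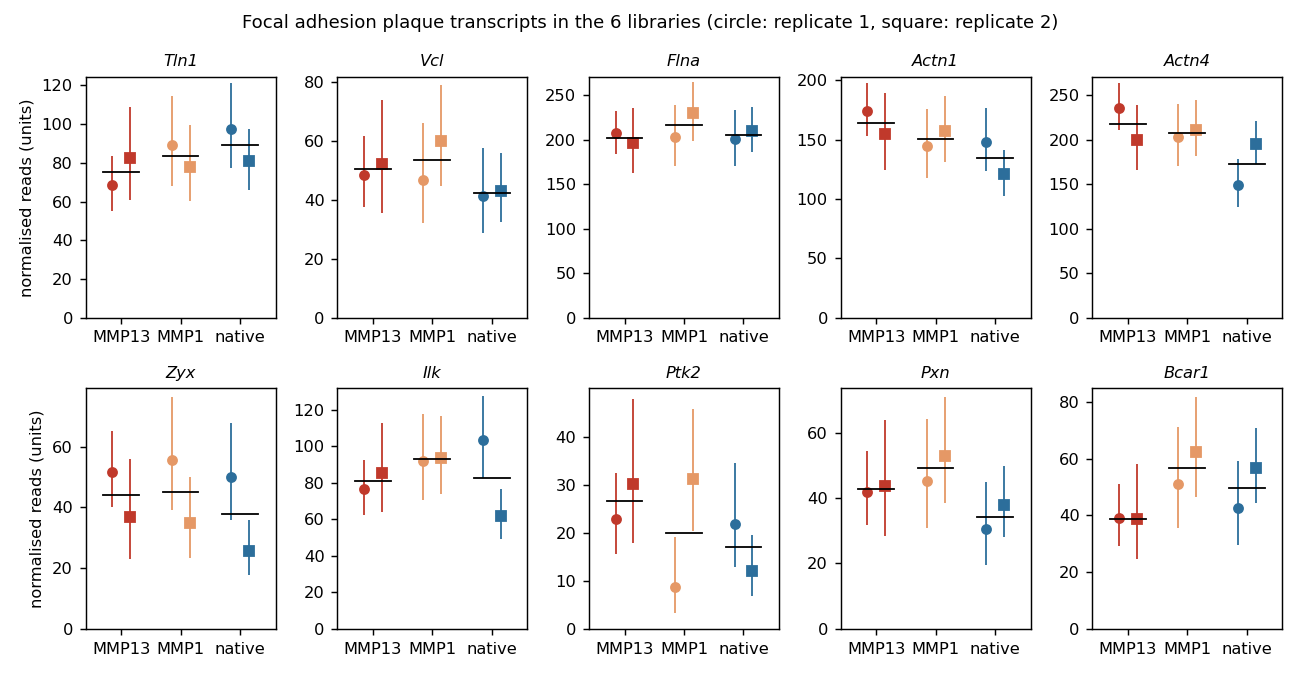
Level of each plaque gene in normalised reads (vertical axes, units, from 0) in the MMP13, MMP1 and native libraries. Circles are replicate 1, squares replicate 2, horizontal lines group means, and bars the 95% Poisson interval of the reads, which covers counting error only. Flna is level across the groups, and Ptk2 has its lowest value, 8.76 units, in MMP1 replicate 1.

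Tln1 encodes talin 1, the integrin activator. It had 68.4 and 82.3 units in MMP13 libraries, 89.1 and 78.0 units in MMP1 libraries and 97.2 and 80.7 units in native libraries. The groups overlapped, and the log2 fold against native was -0.24 (SE 0.27) on MMP13-treated and -0.09 (SE 0.27) on MMP1-treated matrix. Talin was the only member whose fold lay below 0 in both comparisons with native.

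Vcl encodes vinculin, which binds opened talin and reinforces the link to actin. It had 48.5 and 52.1 units in MMP13 libraries, 46.7 and 60.0 units in MMP1 libraries and 41.3 and 43.0 units in native libraries. Each library on treated matrix lay above both native ones, by log2 folds of 0.25 (95% interval -0.40 to 0.90) for MMP13 and 0.32 (-0.33 to 0.97) for MMP1. With 31 to 66 reads per library, the Poisson interval of every Vcl library overlapped that of every other. The ratio of Vcl to Tln1 reads, chosen after the values were seen, was 0.710 and 0.633 in MMP13 libraries, 0.525 and 0.769 in MMP1 libraries and 0.425 and 0.533 in native libraries. It was higher in both MMP13 libraries than in the native ones, while MMP1 overlapped native.

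Vinculin and talin act as a pair, and their promoter windows are shown, from 250 bases before to 50 after the transcription start. Neither gene was called in any comparison, and a link between motifs and folds was not tested. The windows are RefSeq sequence of the build GRCr8, on the minus strand at chr15:3404751-3405050 and chr5:62613638-62613937. Capitals mark the TEAD motif GGAATG and the SP1 GC box GGGCGG, each searched on both strands.
Vcl: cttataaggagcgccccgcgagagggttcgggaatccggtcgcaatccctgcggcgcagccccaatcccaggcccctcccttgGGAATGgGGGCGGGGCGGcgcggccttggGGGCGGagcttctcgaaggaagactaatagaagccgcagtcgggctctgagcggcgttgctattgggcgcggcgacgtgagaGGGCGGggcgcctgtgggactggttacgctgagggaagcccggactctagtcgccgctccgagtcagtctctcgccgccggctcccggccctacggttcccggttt
Tln1: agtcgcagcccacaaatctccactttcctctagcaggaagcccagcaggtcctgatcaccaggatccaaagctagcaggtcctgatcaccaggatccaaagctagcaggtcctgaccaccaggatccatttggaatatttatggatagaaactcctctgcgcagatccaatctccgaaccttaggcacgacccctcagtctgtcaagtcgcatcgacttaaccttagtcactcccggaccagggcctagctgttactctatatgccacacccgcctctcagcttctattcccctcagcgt
The Vcl window held 1 TEAD motif and 4 GC boxes, of which 2 overlap each other, and the Tln1 window held neither motif. The Pxn windows also held neither. Of 33469 promoter windows, 14.2% held the TEAD motif and 33.1% the GC box. Windows were found for 8 of the 10 genes, 11 windows in all. The TEAD motif was in 3 of them, from Vcl, Zyx and Flna, and the GC box in 8. The CArG box bound by the serum response factor was in 0 of the 11 and in 1.64% of all windows. A box cut by the edge of a window is not counted. The Vcl window opens with cttataagg, a CArG box but for its first base, which would lie outside the window and was not read. These matches describe letters in a window and do not show binding.

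Among the actin crosslinkers, Flna was the steadiest member. It encodes filamin A, which also binds integrin tails. It had 207 and 196 units in MMP13 libraries, 203 and 230 units in MMP1 libraries and 201 and 211 units in native libraries. Its coefficient of variation over the 6 libraries was 5.79%, against 7.49% that counting error alone gives. The 95% interval of its fold against native ran from 0.763 to 1.27 on MMP13-treated and from 0.817 to 1.36 on MMP1-treated matrix.

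Actn1 and Actn4 encode the non-muscle alpha-actinins, which bundle actin and bind vinculin and integrin tails. Actn4 had 236 and 200 units in MMP13 libraries, 203 and 211 units in MMP1 libraries and 150 and 195 units in native libraries. All treated-matrix libraries lay above both native ones, the lowest at 200 units against 195 units in native replicate 2. The log2 fold was 0.34 (SE 0.19, adjusted p = 0.66) for MMP13 and 0.28 (SE 0.19, adjusted p = 0.74) for MMP1. Actn1 had 174 and 154 units in MMP13 libraries, 145 and 157 units in MMP1 libraries and 148 and 121 units in native libraries. MMP13 lay above native for Actn1 (log2 fold 0.29, SE 0.21, adjusted p = 0.78), and MMP1 overlapped native (0.17, SE 0.21). The 2 paralogs are counted apart in the table, and the sources used here do not say how reads matching both were assigned.

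Zyx encodes zyxin, a LIM protein that recruits actin-polymerising factors. It had 51.5 and 36.9 units in MMP13 libraries, 55.5 and 34.8 units in MMP1 libraries and 49.8 and 25.7 units in native libraries. The spread within each group exceeded the differences between them. Its log2 folds of 0.28 and 0.29 turned to -0.19 and -0.18 without native replicate 2, for MMP13 and MMP1 against native in that order.

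Ilk encodes integrin-linked kinase, a pseudokinase that scaffolds the plaque. It had 76.5 and 85.6 units in MMP13 libraries, 92.0 and 93.6 units in MMP1 libraries and 103 and 61.9 units in native libraries. Both treated groups lay inside the native range. Without native replicate 2 its log2 fold was -0.35 for MMP13 and -0.15 for MMP1, against 0.02 and 0.21 with all libraries.

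Of the signalling members, Ptk2 encodes focal adhesion kinase. It had 22.8 and 30.2 units in MMP13 libraries, 8.76 and 31.2 units in MMP1 libraries and 21.9 and 12.1 units in native libraries. The MMP13 libraries lay above the native ones, the closest pair being 22.8 and 21.9 units, and the log2 fold was 0.66 with a 95% interval from -0.31 to 1.62. Its coefficient of variation, 43.5%, was the highest of the 10, against 23.9% from counting error. With each gene's own spread in place of the trend, the interval widened to between -1.87 and 3.18. In MMP1 replicate 1 the value rests on 6 reads, and without that library the MMP1 log2 fold was 0.90 in place of 0.04.

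Pxn encodes paxillin, the scaffold that focal adhesion kinase phosphorylates. It had 41.9 and 43.7 units in MMP13 libraries, 45.3 and 52.8 units in MMP1 libraries and 30.4 and 37.7 units in native libraries. All 4 treated-matrix libraries lay above both native ones, and paxillin had the largest log2 fold of the set on MMP1-treated matrix (0.52, SE 0.35, adjusted p = 0.74). On MMP13-treated matrix the log2 fold was 0.33 (SE 0.35, adjusted p = 0.89). With its own spread in place of the trend, the 95% interval for MMP1 ran from 0.03 to 1.01, the only one of the members' own-spread intervals in any comparison that did not contain 0, and the adjusted p was 0.73.

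Bcar1 encodes p130Cas, a docking protein that Src phosphorylates when it is stretched. It had 39.0 and 38.6 units in MMP13 libraries, 51.1 and 62.4 units in MMP1 libraries and 42.5 and 56.6 units in native libraries. MMP13 lay below both other groups, and MMP1 overlapped native. The log2 fold was -0.33 (SE 0.33, adjusted p = 0.87) for MMP13 against native, 0.20 (SE 0.33) for MMP1 against native and -0.53 (SE 0.33, adjusted p = 1) for MMP13 against MMP1.

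**Figure D2:**
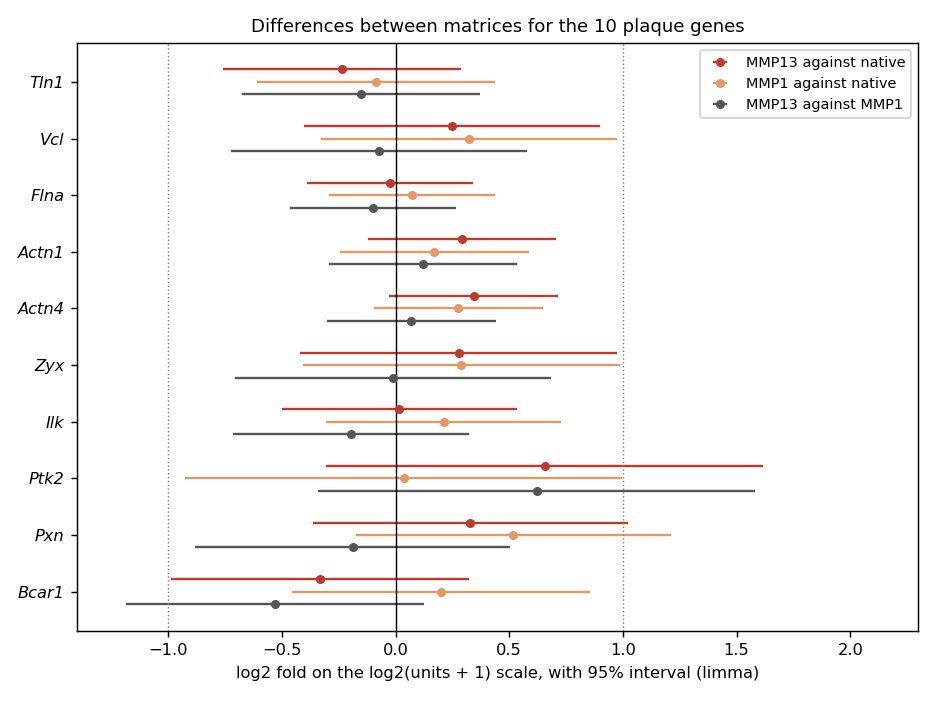
Log2 fold of each plaque gene (horizontal axis, on the log2(units + 1) scale) for MMP13 against native, MMP1 against native and MMP13 against MMP1. Points are limma estimates, bars 95% intervals, and dotted lines 2-fold changes. Every interval from this fit contains 0, and those of Flna, Actn1 and Actn4 are the shortest.

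The limma counts stand beside the following background. On MMP13-treated matrix 0 of 10 members were called, where 0.412% of the 7284 tested genes were, and 0 of 10 had an unadjusted p under 0.05, where 8.05% did. On MMP1-treated matrix 0 of 10 were called against 0.151%, and 0 of 10 had an unadjusted p under 0.05 against 8.24%. For MMP13 against MMP1 the counts were again 0 and 0, against 0.0412% and 5.22%. EdgeR also called 0 members, with 0 at an unadjusted p under 0.05. Its background was 0.700%, 0.219% and 0.0437% of 4574 tested genes, in the same order. DESeq2 called 0 members as well, with shares taken over the genes given an adjusted p. It called 30 of 737 genes (4.07%) for MMP13 against native and 1 of 14735 (0.00679%) in each other comparison. DESeq2 gave an adjusted p to 5 of the 10 for MMP13 against native and to all 10 otherwise.

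The 95% interval stayed within a 2-fold change either way for 8 of 10 members on MMP13-treated matrix, all but Ptk2 and Pxn, for 9 of 10 on MMP1-treated matrix, all but Pxn, and for 8 of 10 between MMP13 and MMP1, all but Ptk2 and Bcar1. These intervals take their error from the trend over genes of like level, and the own standard error was wider for Ptk2 (0.79 against 0.49), Zyx (0.50 against 0.36) and Ilk (0.31 against 0.26). It was narrower for the other 7 members, among them Pxn (0.15 against 0.35), Vcl (0.15 against 0.33) and Flna (0.09 against 0.19). Own-spread intervals rest on 3 residual degrees of freedom, and they were narrower only for Pxn, Vcl, Flna and Bcar1. Those of Actn4, Actn1 and Tln1 were wider. For Actn4 on MMP13-treated matrix the own-spread interval ran from -0.25 to 0.94, against -0.03 to 0.72 with the trend. A bulk measurement cannot tell fewer cells with a transcript from less transcript per cell.

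Libraries did not overlap in the higher direction for 5 members on MMP13-treated matrix (Vcl, Pxn, Actn1, Actn4 and Ptk2), where 18.9% of all tested genes did the same, and in the lower direction for 1 (Bcar1; 18.6%). On MMP1-treated matrix they did not overlap for 3 members, all higher (Vcl, Pxn and Actn4; 19.6%), and for 0 in the lower direction (18.8%). Between MMP13 and MMP1 they did not overlap for 3 members, all lower on MMP13-treated matrix (Bcar1, Ilk and Pxn; 15.4%), and for 0 in the higher direction (15.9%). The share of all tested genes with both treated groups above native at once, as for Vcl, Pxn and Actn4, was not computed.

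The median of the member folds and the count above 0, neither tested against all genes, depended in part on native replicate 2. Without it the median log2 fold of the members was 0.08 on MMP13-treated and 0.07 on MMP1-treated matrix, and 6 of 10 were above 0 in each. Without native replicate 1 the medians were 0.20 and 0.31. Without MMP13 replicate 1 the MMP13 median was 0.15, and without MMP1 replicate 2 the MMP1 median was 0.13. Under scaling by TMM factors 6 of 10 were above 0 for MMP13 and 8 of 10 for MMP1, and with quantile scaling 7 and 8.

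Summed, the 10 genes took 0.363% and 0.339% of reads in MMP13 libraries, 0.349% and 0.374% in MMP1 libraries and 0.331% and 0.322% in native libraries. The group means were 0.351% ± 0.017, 0.362% ± 0.018 and 0.327% ± 0.007 in that order (SD, n = 2 each). All 4 treated-matrix libraries lay above the native ones, while the exact binomial interval of native replicate 1, from 0.308% to 0.356%, contained 2 of them, MMP13 replicate 2 and MMP1 replicate 1. Flna, Actn4 and Actn1 supplied most of these reads in every library.

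**Figure D3:**
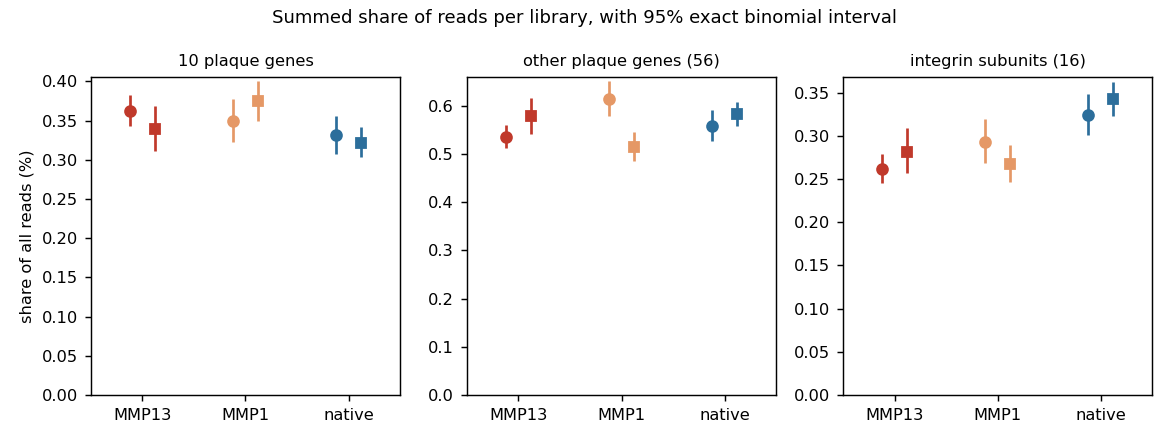
Share of all reads in each library (vertical axes, percent, from 0) taken by the 10 plaque genes, by 56 other plaque genes and by 16 integrin subunits, with 95% exact binomial intervals for counting error. The 10 plaque genes are highest at 0.374% in MMP1 replicate 2, and the integrin subunits are highest in the native libraries. Most of the integrin reads in every library are from Itgb1.

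A wider list of plaque proteins was set beside these members. Of its 60 genes, 56 were in the table and 38 were tested. Limma called 0 in each comparison with native, as did edgeR and DESeq2. EdgeR tested only 33 of the 38. DESeq2 gave an adjusted p to 7 of them for MMP13 and to 38 for MMP1, and the rest could not be called. By limma, 7 genes had an unadjusted p under 0.05 for MMP13 (4 higher, 3 lower), where 8.05% of all tested genes did. For MMP1 there were 5 (2 higher, 3 lower), where 8.24% did. The median log2 fold was -0.07 for MMP13 and 0.04 for MMP1, against 0.26 and 0.21 for the 10 members. Summed, the 56 genes took between 0.516% and 0.615% of reads, and the groups overlapped.

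Within that list, Lasp1 and Vasp lay higher in every treated-matrix library than in either native one, as did Fermt2 and Trip6 at larger p. Without overlap, 8 of the 38 lay higher and 8 lower than native for MMP13 (18.9% and 18.6% of all tested genes). For MMP1, 9 lay higher and 8 lower (19.6% and 18.8%). The share of all tested genes lying on 1 side of native in both treated groups at once was not computed. Lasp1 encodes a LIM and SH3 protein that binds actin and zyxin. It had 112 and 102 units in MMP13 libraries, 112 and 97.2 units in MMP1 libraries and 60.8 and 61.9 units in native libraries. The log2 fold was 0.79 (SE 0.26, adjusted p = 0.21) for MMP13 and 0.76 (SE 0.26, adjusted p = 0.24) for MMP1, and edgeR gave adjusted p of 0.12 and 0.20. Vasp encodes an actin-polymerising protein that zyxin recruits. It had 92.7 and 84.0 units in MMP13 libraries, 96.4 and 90.0 units in MMP1 libraries and 66.9 and 53.6 units in native libraries, with log2 folds of 0.55 (adjusted p = 0.59) and 0.63 (adjusted p = 0.46). Neither gene passed. The Vasp relative Enah had a log2 fold of 1.10 for MMP13 (adjusted p = 0.37), which was 0.14 without native replicate 1, and the LIM protein gene Fhl2 also had one of 1.10 (adjusted p = 0.61). For MMP1 the next genes on this side were Csrp1 (0.41, adjusted p = 0.65) and the vinexin gene Sorbs3 (1.12, adjusted p = 0.71). With a library left out, Sorbs3 ran from 0.24 (without native replicate 1) to 2.00 (without native replicate 2), and Csrp1 was 0.22 without native replicate 2.

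On the lower side stood Cav1, which encodes the caveolar coat protein caveolin 1. It had 55.9 and 68.8 units in MMP13 libraries, 83.2 and 61.2 units in MMP1 libraries and 113 and 102 units in native libraries. All treated-matrix libraries lay below both native ones, by log2 folds of -0.78 (SE 0.27, adjusted p = 0.28) for MMP13 and -0.58 (SE 0.27, adjusted p = 0.54) for MMP1. Kank1, whose protein binds talin at the rim of adhesions, had 4.38 and 4.80 units in MMP1 libraries, on 3 and 4 reads. It had 9.56 and 8.40 units in MMP13 libraries and 17.0 and 24.9 units in native libraries. The log2 fold was -1.95 (adjusted p = 0.24) for MMP1 and -1.12 (adjusted p = 0.71) for MMP13. The Src-family kinase gene Fyn (-1.31, adjusted p = 0.46) and Limd1 (-0.88, adjusted p = 0.67) followed for MMP1. Arhgef6 (-1.66, adjusted p = 0.49), the PINCH-binding Rsu1 (-0.91, adjusted p = 0.61) and the kinase gene Pak1 (-0.95, adjusted p = 0.63) followed for MMP13. Arhgef6 had 1 read in MMP13 replicate 2 and was -0.58 without that library and -2.75 without MMP13 replicate 1. In MMP1 libraries Arhgef6 (log2 fold -1.24) and Pak1 (-0.62) also lay below both native ones. Leaving out native replicate 1 gave log2 folds of -0.55 for Rsu1 and -0.25 for Limd1, and leaving out native replicate 2 gave -1.51 for Limd1.

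**Figure D4:**
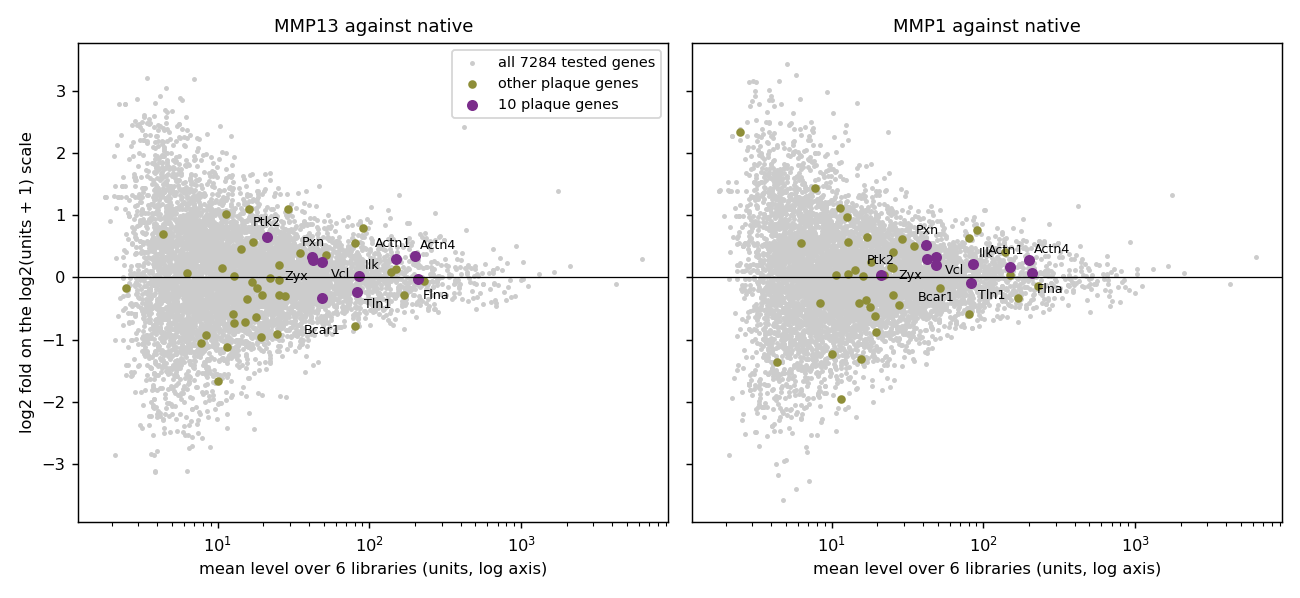
Mean level over the 6 libraries (horizontal axes, units, logarithmic) against log2 fold (vertical axis) for all tested genes (grey), other plaque genes and the 10 plaque genes, for MMP13 and for MMP1 against native. The 10 genes lie among other genes of like level in both plots, the furthest from 0 being Ptk2 at 0.66 and Pxn at 0.52.

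The receptors to which the plaque attaches and the actin genes it anchors were read the same way. Of 20 integrin subunits 16 were in the table and 10 were tested. Limma called 0 in either comparison with native, as did edgeR, which tested 7 of the 10. By limma, 1 gene had an unadjusted p under 0.05 for MMP13 (8.05% of all tested genes) and 3 for MMP1 (8.24%), all lower. Itgb1, the shared beta 1 chain, had 479 and 497 units in MMP13 libraries, 570 and 511 units in MMP1 libraries and 649 and 668 units in native libraries. Its log2 fold of -0.43 for MMP13 (adjusted p = 0.12) passed with quantile scaling (0.0447) and by DESeq2 (0.0441). For MMP1 it was -0.29 (adjusted p = 0.50). Summed, the integrin subunits took 0.272% ± 0.014 of reads in MMP13 libraries, 0.280% ± 0.018 in MMP1 libraries and 0.333% ± 0.013 in native libraries (SD, n = 2 each). Itgb1 supplied most of these reads in every library, so the sums mainly follow that gene. It had 652 of 949 and 296 of 456 reads in MMP13 libraries and 390 of 540 and 426 of 602 in MMP1 libraries. In native libraries it had 534 of 712 and 885 of 1190. Besides Itgb1, the smallest p among lower subunits belonged to Itga6 (log2 fold -1.00) for MMP13 and to Itga11 (-1.86) and then Itga6 (-1.19) for MMP1. Among higher subunits it belonged to Itgb7 (0.66) and Itga5 (0.24) for MMP13 and to Itgb5 (0.40) and Itgb7 (0.28) for MMP1. Itga11 had only 1 and 2 reads in the MMP1 libraries. Itga6 had 8 and 5 reads there and 4 reads in MMP13 replicate 2.

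Of 27 actin and MRTF-SRF target genes 25 were in the table and 24 were tested. Limma, edgeR and DESeq2 called 0 in either comparison with native. EdgeR tested only 21 of the 24, and DESeq2 gave an adjusted p to 14 of them for MMP13 and to 24 for MMP1. At an unadjusted p under 0.05 there were 4 for MMP13 (2 higher, 2 lower; 8.05% of all tested genes) and 2 for MMP1 (1 higher, 1 lower; 8.24%). Among higher genes the smallest p belonged to Myl12a (log2 fold 0.31) and Acta2 (0.78) for MMP13 and to Acta2 (0.87) and Tpm1 (0.27) for MMP1. Among lower genes it belonged to Cald1 (-1.36) and Tpm2 (-0.43) for MMP13 and to Cyr61 (-0.68) and Actb (-0.10) for MMP1. Cald1 had 3 reads in MMP13 replicate 2, and with a library left out its MMP13 log2 fold ran from -2.05 to -0.67. Myl12a passed with quantile scaling (adjusted p = 0.0276). The native libraries of Acta2 lay at 17.0 and 48.3 units, and without native replicate 1 its log2 folds were 0.05 for MMP13 and 0.14 for MMP1.

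Between the treated matrices, 3 of 10 members had a log2 fold above 0 for MMP13 against MMP1, where 49.8% of all tested genes did, with a median of -0.09 against -0.003. Without MMP1 replicate 1 the median was -0.20 and without MMP1 replicate 2 it was -0.04. No interval of the fit excluded 0, and those of Flna (-0.46 to 0.27), Actn4 (-0.30 to 0.44) and Actn1 (-0.29 to 0.54) were the shortest. Of the other plaque genes 0 of 38 were called by limma or DESeq2, and 0 of the 33 that edgeR tested. By limma, 3 had an unadjusted p under 0.05, all lower, where 5.22% of all tested genes did. Pdlim5 (-2.49), Ajuba (-1.57), Fhl2 (1.07) and the supervillin gene Svil (2.06) had the smallest p in each direction, all at mean levels below that of Ptk2 and with adjusted p of at least 0.798. Pdlim5 had 0 reads in MMP13 replicate 2 and Svil had 0 in MMP1 replicate 2. Svil reached the 5 units of the filter only in the MMP13 libraries (5.15 and 10.1 units). Its direction here was therefore fixed by the filter and is not a result. With a library left out the log2 fold ran from -3.89 (without MMP13 replicate 1) to -1.10 (without MMP13 replicate 2) for Pdlim5, from -2.41 (without MMP13 replicate 2) to -0.72 (without MMP13 replicate 1) for Ajuba and from 1.07 (without MMP1 replicate 2) to 3.04 (without MMP1 replicate 1) for Svil, which failed the filter without either MMP13 library.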

How the data were processed

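Messenger RNA was measured by 3' end sequencing in 6 libraries of Rat-1 fibroblasts, 2 per matrix, grouped by sample title. The submitters' processing notes name bcl2fastq, TopHat and DESeq (no versions) and the build rn5. The sources used here give no counter, annotation release or strand setting and do not say whether the 8-nucleotide molecular identifiers were collapsed. The deposited table holds a normalised signal: read counts per gene scaled by the authors with a size factor for each library. The values themselves show it, since 100% of nonzero entries are whole multiples of a library's smallest one, within 0.01 reads, and whole reads were recovered on that basis. Intervals on reads cover counting error only.

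Log2(value + 1) was fitted with limma 3.58.1 in R 4.3.3 (intensity trend, all 6 libraries, no replicate block) for genes with at least 5 units in at least 2 libraries. P-values were Benjamini-Hochberg adjusted over all 7284 genes, and a call is an adjusted p under 0.05. Every adjusted p is from this fit unless another tool is named. On this scale folds of low genes are understated. Limma estimated infinite prior degrees of freedom, so errors come from the trend. Alternatives were edgeR 4.0.16 and DESeq2 1.42.0 on recovered reads, other pseudocounts, filters, scalings and error models, a replicate block, and each library left out. The code was tested on simulated counts. The members, lists and rules were chosen with earlier results of these data known. Named were all members, every called list gene, and per comparison with native and direction the 4 smallest p among other plaque genes and 2 in each further list (2 of the other plaque genes between MMP13 and MMP1). List symbols were matched by symbol or synonym to a RefSeq table of GRCr8. Promoter windows came from RefSeq on that build.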

Additional observations from a re-analysis of the deposited data

How the results depend on the processing

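No member and no other plaque gene was called in any of the 3 comparisons under any of the 12 alternatives with all libraries or the 6 fits that left out a library. Genes that a fit did not test, or gave no adjusted p, could not be called. Of 540 log2 folds of members under alternatives, 514 kept their sign and 26 changed it, none of them past the threshold. With all libraries the sign changed for Ilk on MMP13-treated matrix (-0.0124 by TMM factors, -0.0175 by DESeq2), for Ptk2 on MMP1-treated matrix (-0.0192 by TMM factors, -0.0175 by quantile scaling), and for Zyx between MMP13 and MMP1 (0.0186 by TMM factors, 0.0343 by edgeR, 0.0151 by DESeq2). The fold of Actb on MMP1-treated matrix was 0 with quantile scaling. With a library left out, log2 folds against native ran for MMP13 from -0.19 to 0.74 for Zyx, -0.0645 to 0.0132 for Flna, -0.35 to 0.38 for Ilk and -0.0719 to 1.40 for Itgb7. For MMP1 they ran from -0.18 to 0.75 for Zyx, -0.22 to 0.0456 for Tln1, -0.0176 to 0.16 for Flna, -0.15 to 0.58 for Ilk, -0.83 to 0.90 for Ptk2 and -0.0027 to 0.40 for Bcar1. Between MMP13 and MMP1 they ran from -0.25 to 0.10 for Vcl, -0.34 to 0.32 for Zyx, -0.24 to 1.48 for Ptk2 and -0.0513 to 0.19 for Actn4. The causes were not tested.

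Calls over all genes numbered 30 for MMP13 against native, 11 for MMP1 against native and 3 for MMP13 against MMP1. For MMP13 against native they numbered 18 with a pseudocount of 0.5, 13 with no filter, 8 by TMM factors, 6 with only the 2 groups compared, and 0 both without the trend and with each gene's own spread. For MMP1 against native they numbered 3 by TMM factors, 5 with only the 2 groups compared, 1 by DESeq2 and 0 without the trend or with each gene's own spread. For MMP13 against MMP1 they numbered 1 with only the 2 groups compared, 1 by DESeq2 and 0 without the trend or with each gene's own spread. With a library left out they ran from 6 to 35, from 3 to 17 and from 1 to 27 in the same order. The fits that moved the count by over 1.5 times were, for MMP13 against native, those without MMP13 replicate 2 (7), MMP1 replicate 1 (15), MMP1 replicate 2 (14) and native replicate 1 (6). For MMP1 against native they were those without MMP1 replicate 1 (7), MMP1 replicate 2 (7), native replicate 1 (3) and native replicate 2 (17). For MMP13 against MMP1 they were those without MMP13 replicate 1 (27), MMP13 replicate 2 (1) and native replicate 2 (1). With the replicate block they numbered 21, 11 and 2, and it called 0 members. The replicate numbers are not stated to pair libraries, and their deviations correlated over genes between -0.07 and 0.01. The depth of 161817 to 362122 reads limits the genes of low level most, here Ptk2.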
